A study of Mus musculus with 9 samples.

Results

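The comparison set the 3 libraries titled SUS against the 3 titled RES, the groups of mice that had taken cocaine, in RNA of nucleus accumbens cells sorted for ChAT (choline acetyltransferase, which synthesises acetylcholine). Members were chosen by sample title alone, 6 of the 9 libraries in all, and 39210 of the 52636 Ensembl genes in the table had enough counts to be tested. Mice of both groups were male C57BL/6 animals that had learned to take cocaine under a fixed ratio schedule, with at most 40 infusions, and then had 10 days of progressive ratio sessions of 23 h at 1.2 mg/kg per infusion. In a progressive ratio session each further infusion costs more responses. The accumbens was collected 3 days after self-administration had ended, with 2 to 3 mice of a condition combined. The labels do not say whether each library had its own pool, and age was not given in the sources used here. A field for genotype or variation holds only WT, RES or SUS, so no allele or transgene is named for any group. The other 3 libraries came from drug-naive mice and enter here through the shared estimate of the spread and as a reference level. For RES libraries the phenotype field of the labels reads susceptible and for SUS libraries resilient, the opposite of what the titles abbreviate. The title names are therefore kept, and no difference is read as belonging to susceptible or resilient animals.

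Cholinergic interneurons are a sparse class of large striatal neurons that fire tonically and release acetylcholine over a wide field, and they are known to pause at cues that predict reward. They make up a very small share of accumbens cells, most of which are medium spiny projection neurons with astrocytes, oligodendrocytes and microglia among them. Cells isolated through enzymatic dissociation are known to switch on immediate early genes such as Fos, above all microglia, which respond quickly to damage.

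Total counts were 6895457, 4574518 and 4913649 in RES replicates 1 to 3 and 11155730, 8626317 and 8081639 in SUS. The SUS libraries were thus deeper in every case, and a two-sided exact permutation test gave p = 0.1, the smallest p that 3 against 3 libraries allow (adjusted p = 0.25 over 5 library measures). Mitochondrial genes took 9.09% to 28.7% of counts in RES and 16.0% to 26.2% in SUS. Background, the count density of 1092 olfactory receptor genes that brain cells do not use, was 8.01 to 17.6 counts per kb of exon in RES and 17.9 to 18.7 in SUS, and below, a level "times background" is a gene's own density divided by it. If every exon of the nuclear genes held that density, it would make up 50.4% of their counts in RES replicate 3. The value was 25.3% to 35.8% in the other 5 libraries. It is an extrapolation from the olfactory receptor genes. Genes of other tissues on the autosomes were at a median of 1.55 to 2.34 times background in the 6 libraries, so a level near 2 is that of a silent gene. Of the 17 cholinergic identity genes, 0 averaged over 3 times background, and their median was 1.38 to 1.73 in RES and 1.01 to 1.77 in SUS. The labelled cell type was thus not visible above silent genes as a list, while astrocytes and medium spiny neurons were above them in all 6 libraries. Microglia were above them in RES replicate 1 and the 3 SUS libraries, and at 1.98 and 2.15 times background, below silent genes, in RES replicates 2 and 3. Fewer cells of a type and less RNA per cell cannot be told apart in such libraries.

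No gene passed the test between SUS and RES after adjustment over all genes. The lists with the largest median difference, in SUS over RES, were microglia, immediate early genes, cytosolic ribosomal proteins and oligodendrocytes. The first 3 of these were also high in RES replicate 1, and SUS replicate 2 lay within the range of RES for microglia, immediate early genes, ribosomal proteins and oligodendrocytes. Lists of synaptic and medium spiny neuron genes had small negative medians whose sign depended on single libraries. Every SUS library lay above every RES library in 1336 genes (3.41%), Lgals3bp and 5 of 23 interferon response genes among them, and below in 1655 (4.22%).

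By edgeR's quasi-likelihood test with Benjamini-Hochberg adjustment 0 of 39210 genes were called (0%), with a smallest adjusted p of 0.87. At an unadjusted p under 0.05 there were 2227 genes, 5.68% of those tested. Of these 1571 (4.01% of all genes) were higher in SUS and 656 (1.67%) lower. Calls were likewise 0 by DESeq2, where 1885 genes had an unadjusted p under 0.05, and 0 by limma-voom with library weights, where 3367 did. Of the genes at unadjusted p under 0.05, 70.5% were higher in SUS by edgeR, 70.9% by DESeq2 and 50.4% by limma-voom. The limma-voom weights were 2.51 for RES replicate 1 and 2.54 for SUS replicate 1. They were 0.341 to 0.809 for the other RES and SUS libraries, and the part of the weights was not tested. The number of genes at that p by edgeR depended on libraries. Without SUS replicate 2 there were 4712 such genes, without SUS replicate 3 1171, without RES replicate 3 1127, and without SUS replicate 3 and RES replicate 3 together 764, with 0 called each time. The median standard error of a log2 fold change was 0.35 per gene, and 0.28 among genes of at least 10 CPM (counts relative to the library total, scaled by the trimmed mean of M values).

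The share of genes with a small p was higher in classes further above background. Classes were set by the mean over the same 6 libraries, so a gene very high in some libraries of a group could reach an upper class through them. The trend was not tested apart from that. Among the 488 protein-coding genes at 10 or more times background, 20.9% were higher in SUS at an unadjusted p under 0.05 and 0% lower. The shares were 10.2% and 0.311% among the 5150 genes at 3 to 10 times background, and 2.09% and 1.65% among the 2781 below background. The median log2 fold change went from 0.00 in that lowest class to 0.18 in the highest, beside 0.01 over all genes tested. Genes whose 3 SUS libraries all lay above their 3 RES libraries did not follow this order. They made up 3.56% of the lowest class and 0.410% of the highest. Lists below are set beside the 4.01% of all genes that were higher in SUS at an unadjusted p under 0.05. For lists mostly above 3 times background, the shares of 10.2% and 20.9% are nearer in level.

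**Figure D1:**
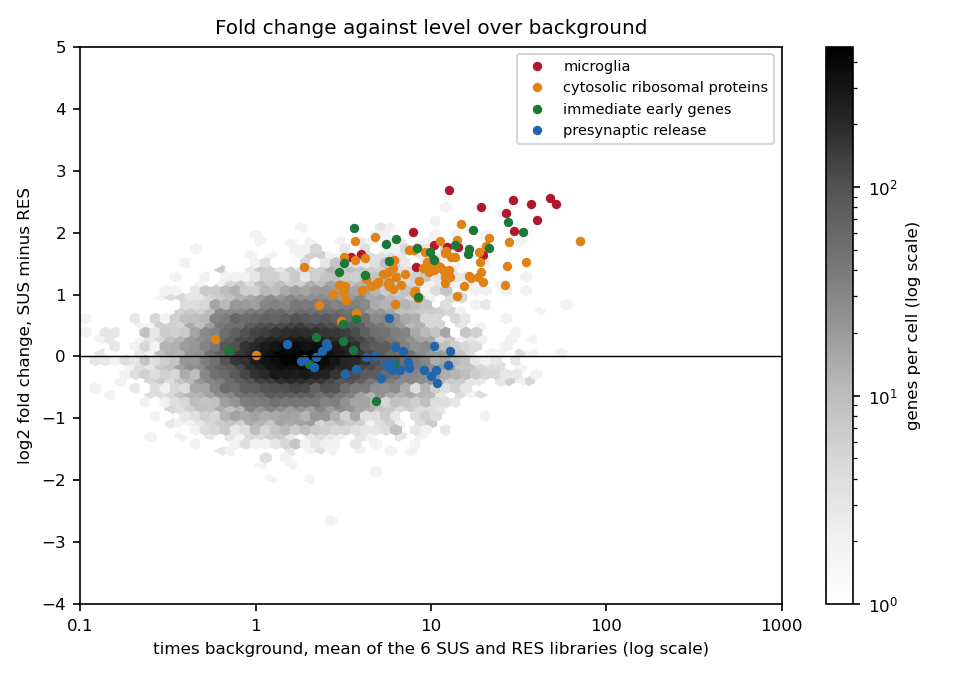
Log2 fold change of SUS minus RES (vertical axis) against level in times background, averaged over the 6 libraries (horizontal axis, log scale), with grey cells for the number of genes and coloured points for members of 4 lists. The 18 microglial genes (red) and most ribosomal (orange) and immediate early genes (green) lie above 0 and right of the bulk, while presynaptic genes (blue) lie around 0.

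The 3 highest libraries of each gene were compared with 4 sets of libraries, and other sets were not counted. In 9.65% of all genes tested the 3 highest libraries were RES replicate 1 and SUS replicates 1 and 3, and in 7.71% they were RES replicates 1 and 2 and SUS replicate 2. Both orders were commoner than the 3 SUS libraries on top (3.41%) or the 3 RES libraries (4.22%). Among the 5638 protein-coding genes over 3 times background the 4 shares were 22.1%, 19.7%, 2.84% and 0.780%. Genes of microglia and ribosomes took the first order, and genes of medium spiny neurons and synapses the second. The mixed sets are the libraries where the microglial and medium spiny neuron lists were highest, so this describes the same values and is no separate support. Across all genes, libraries of different groups correlated at Spearman 0.864 to 0.958, which spans the values within RES (0.923 to 0.933) and within SUS (0.874 to 0.938).

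**Figure D2:**
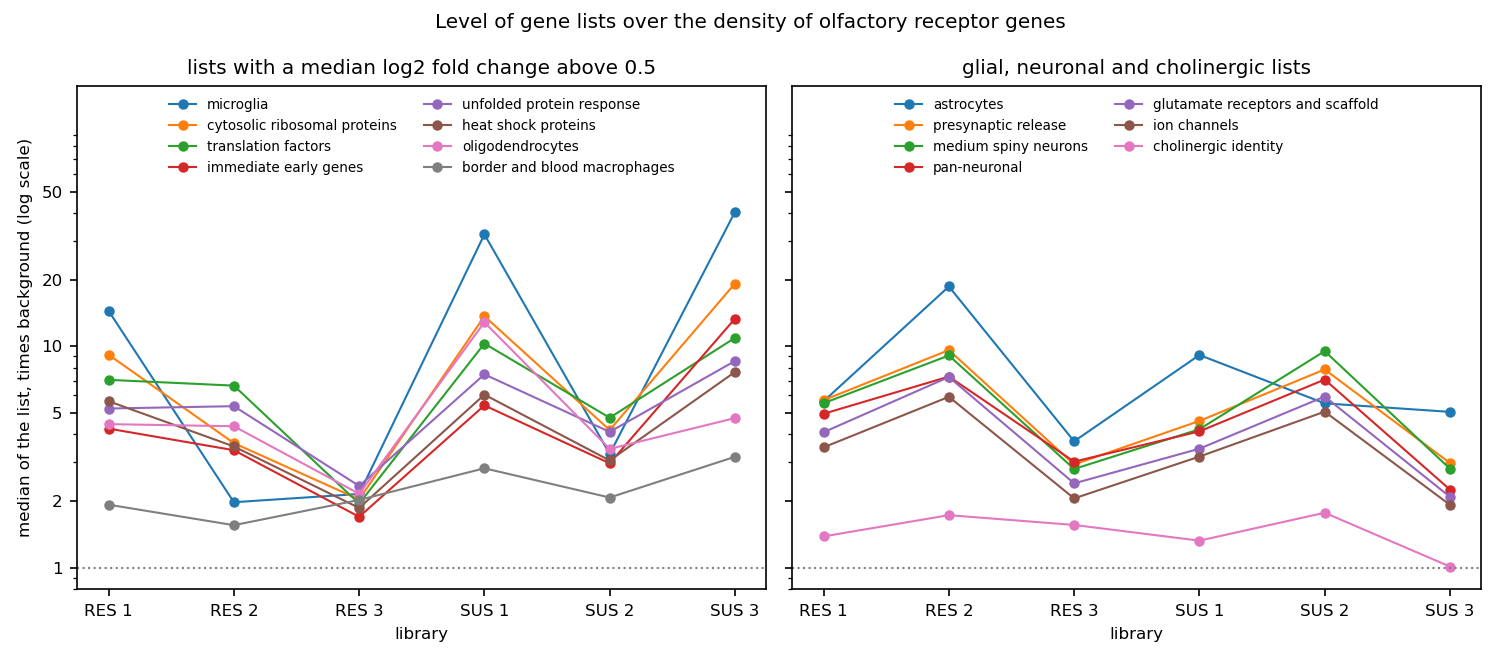
Median level of gene lists in each of the 6 libraries, in times background on a log scale, with a dotted line at background. Microglial, ribosomal, immediate early and stress lists (left) are highest in SUS replicates 1 and 3, neuronal lists (right) in RES replicate 2 and SUS replicate 2, and the cholinergic list stays between 1.01 and 1.77.

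Genes were kept at 10 CPM or more in the mean of either group. Some therefore passed only through their higher group, such as Abi3, at means of 14.5 CPM in SUS and 3.33 in RES. Among genes of at least 10 CPM in a group, 567 of 15345 (3.7%) had every SUS library above every RES library. Predicted genes, pseudogenes and olfactory and vomeronasal receptors were left out of the naming. Of the rest, the 12 with the smallest p were Lgals3bp, Abi3, Etohd2, Fhl3, Fmod, Zc3h11a, Ifi27, Nmrk2, Sh2b3, Zfp65, Gsk3a and Ssr2, each with an adjusted p of 0.87 by edgeR. Lgals3bp (chromosome 11, 118392751 to 118402092, GRCm38), which encodes a secreted glycoprotein that binds galectins and is induced by interferon, was at 18.6, 14.2 and 9.88 CPM in RES replicates 1 to 3 and at 64.5, 24.1 and 34.7 in SUS. SUS replicate 1 was the highest, and the nearest libraries of the groups, SUS replicate 2 and RES replicate 1, differed by less than the spread within SUS. Its log2 fold change was 1.54 (SE 0.36), on means of 41.1 ± 20.99 against 14.2 ± 4.35 CPM (SD, n = 3 each). It averaged 4.78 times background. Ifi27 (chromosome 12, 103434211 to 103440239), an interferon-inducible gene of the mitochondrial membrane, was at 11.2, 12.0 and 8.71 CPM in RES and 21.2, 15.7 and 18.0 in SUS. Its log2 fold change was 0.79 (SE 0.22), and the drug-naive libraries lay between the groups at 13.07, 13 and 12.86 CPM.

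Of these 12 genes, 4 averaged over 3 times background, Lgals3bp, Ifi27, Sh2b3 and Gsk3a. Sh2b3 (chromosome 5, 121815488 to 121837646), an adaptor that restrains cytokine receptor signalling, was at 28.2, 26.9 and 15.6 CPM in RES and 65.6, 32.0 and 69.8 in SUS. Gsk3a (chromosome 7, 25228258 to 25237851), a kinase of glycogen and Wnt signalling, was at 19.1, 16.5 and 9.23 CPM in RES and 31.9, 23.5 and 58.2 in SUS. In both genes SUS replicate 2 was the lowest SUS library and stood close to RES replicate 1. The log2 fold changes were 1.25 (SE 0.35) and 1.35 (SE 0.38). Ssr2 (chromosome 3, 88575876 to 88588419), a subunit of the translocon-associated complex of the endoplasmic reticulum, showed the tightest groups, with 8.41, 7.30 and 8.45 CPM in RES and 14.1, 13.8 and 13.1 in SUS, at 2.83 times background. The cytoskeletal adaptor Abi3, known from microglia, had the largest log2 fold change of the 12, 2.09 (SE 0.52), with 4.21, 2.15 and 3.64 CPM in RES and 12.8, 4.32 and 26.4 in SUS. It averaged 1.01 times background and rested on 10 to 28 counts per RES library. Abi3, Etohd2, Nmrk2, Sh2b3, Gsk3a and Ssr2 overlap a gene of the other strand, and without a stated strand setting their reads cannot be told from that gene's. Zc3h11a, Zfp65 and Sh2b3 overlap a gene of their own strand. In all 12 the mean of the drug-naive libraries lay between the group means. Picking genes with separated groups favours this, and the share over all genes was not counted.

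Fewer genes that passed this minimum separated the other way. Some of them passed only through RES, such as Loxl2, at means of 7.16 CPM in SUS and 13.3 in RES. Of genes of at least 10 CPM, 349 (2.27%) had every SUS library below every RES library. With the same classes of genes left out, the 12 with the smallest p were Psg18, Loxl2, Endou, Styxl1, Rtl9, Oxtr, Nox3, Has1, Igsf23, Tnni3, Cnga3 and Allc. Many of these are known from other tissues, such as the placental glycoprotein gene Psg18, the cone photoreceptor channel gene Cnga3 and cardiac troponin I, Tnni3. Only Allc, the allantoicase gene, averaged over 3 times background (3.97), and the lowest, Loxl2, was at 0.922. Psg18 (chromosome 7, 18345422 to 18355009) was at 12.97, 15.5 and 13.9 CPM in RES and 8.66, 9.31 and 6.04 in SUS, a log2 fold change of -0.81 (SE 0.23), and it rested on 50 to 107 counts per library. Oxtr (chromosome 6, 112473683 to 112489943), the oxytocin receptor, was at 13.3, 14.8 and 16.5 CPM in RES and 8.66, 11.4 and 5.92 in SUS, a log2 fold change of -0.78 (SE 0.27). SUS replicate 3 was the lowest library for both. Loxl2, Igsf23 and Tnni3 overlap another gene. Each had an adjusted p of 0.87 by edgeR, and Oxtr averaged 1.21 times background, the level of silent genes. In 9 of the 12 the mean of the drug-naive libraries lay between the group means, which the choice of separated genes again favours.

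**Figure D3:**
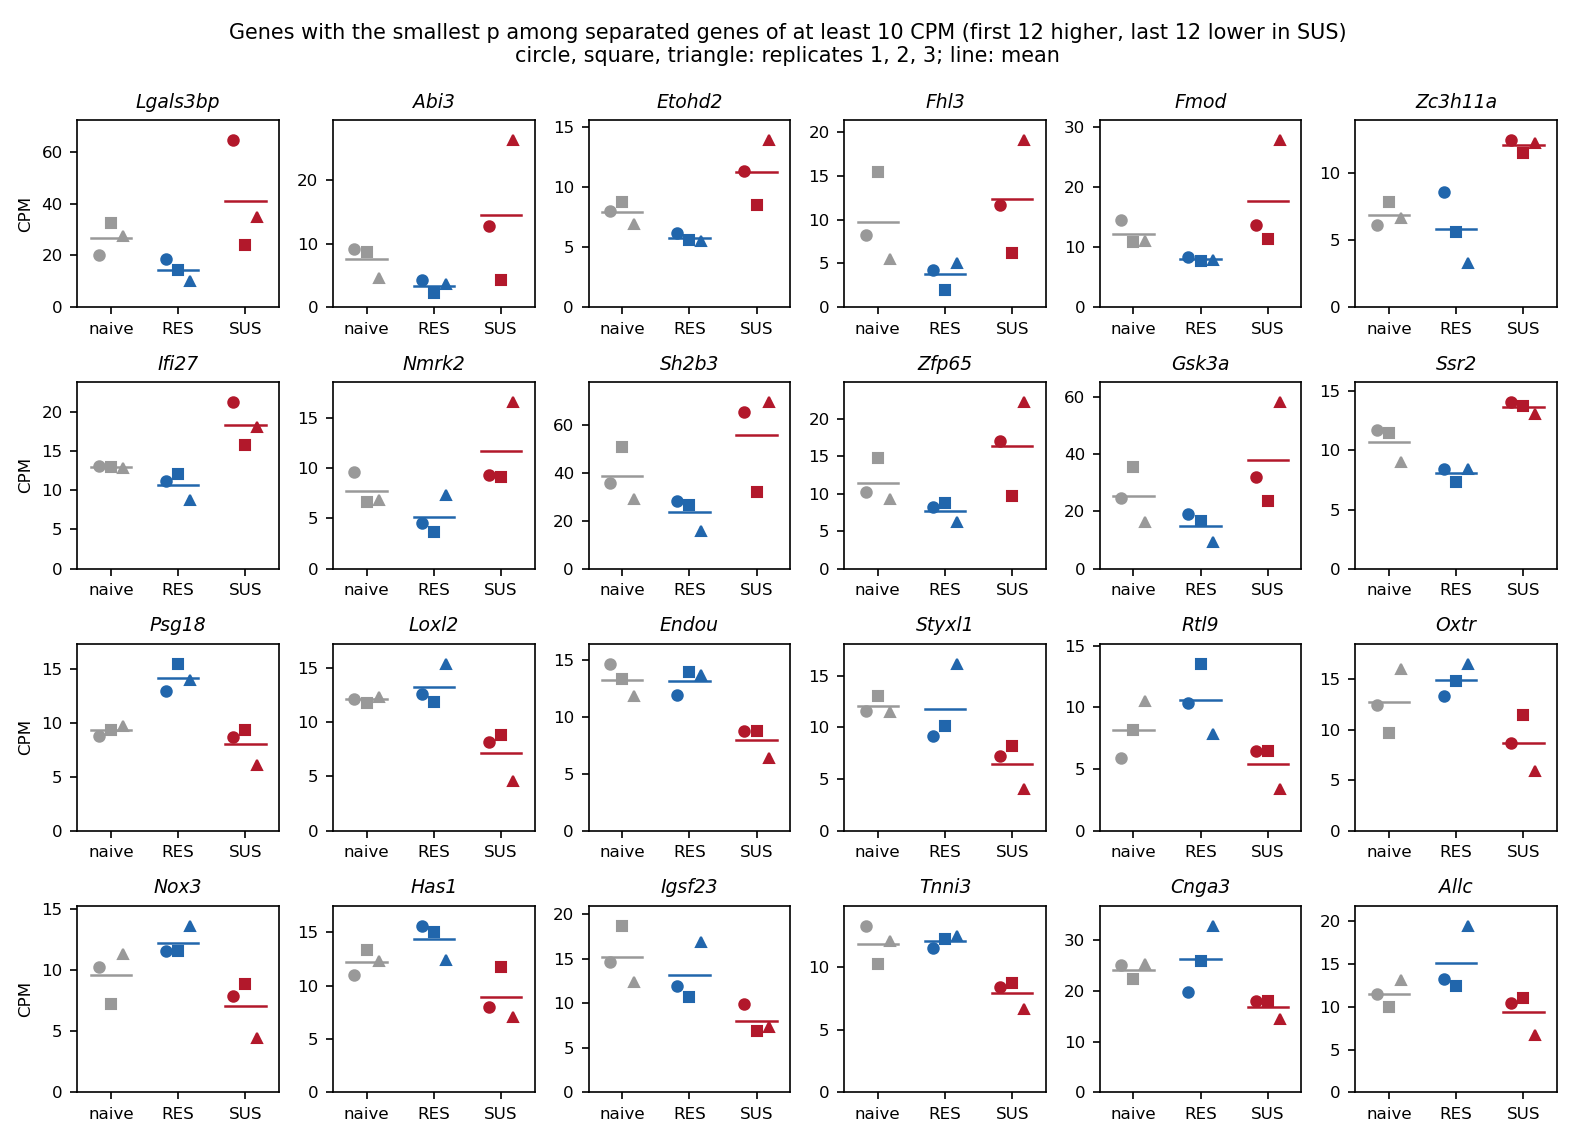
CPM of the 24 genes named by smallest p among separated genes, by group (grey drug-naive, blue RES, red SUS), with circle, square and triangle for replicates 1 to 3 and a line at the mean. Predicted genes, pseudogenes and olfactory and vomeronasal receptors were left out. The upper 12 panels show genes higher in SUS, where SUS replicate 2 (square) is often the lowest of its group, and the lower 12 show genes lower in SUS, where SUS replicate 3 (triangle) is often the lowest.

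Microglial genes, the markers of the brain's resident macrophages, had the largest list median. All 18 had a log2 fold change above 0, with a median of 2.02, and 12 reached an unadjusted p under 0.05 (4.01% of all genes did in that direction). None of the 18 separated the groups, and 0 were called. The list's median level was 14.5, 1.98 and 2.15 times background in RES replicates 1 to 3 and 32.1, 3.26 and 40.5 in SUS. RES replicate 1 was therefore well above SUS replicate 2, and in all 18 genes the 3 highest libraries were RES replicate 1 and SUS replicates 1 and 3. Summed over the list the range was 188 to 1805 CPM in RES and 313 to 5731 CPM in SUS, with 0 members at 0 counts in any library. Tmem119, a surface protein of homeostatic microglia, was at 41.0, 3.01 and 5.85 CPM in RES and 124, 7.76 and 192 in SUS (log2 fold change 2.70, SE 1.02). Sall1, a transcription factor of microglial identity, was at 83.3, 40.6 and 28.4 CPM in RES and 250, 35.2 and 246 in SUS (1.80, SE 0.65). Tyrobp, a signalling adaptor, and Fcrls, an Fc receptor-like gene, had log2 fold changes of 1.64 and 2.41. The list's median was 1.13 without RES replicate 3 and SUS replicate 3, and 4.02 without RES replicate 1.

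Markers of macrophages at the brain's borders and in blood went the same way at a lower level. Of 14, 12 had a log2 fold change above 0 (median 0.51), and 5 averaged over 3 times background. At an unadjusted p under 0.05 were 6, beside 4.01% of all genes upward. The genes with the smallest p serve antigen presentation by the major histocompatibility complex, class II. Cd74, its invariant chain, was at 47.9, 13.5 and 11.8 CPM in RES and 123, 26.4 and 151 in SUS (2.04, SE 0.60). SUS replicate 2 again lay between the RES libraries. H2-Ab1 and H2-Aa, class II chains, had log2 fold changes of 1.42 and 1.02, and the lysozyme gene Lyz2 one of 1.93. The 11 lymphocyte and granulocyte genes tested had a median of -0.02, with 4 above 0, 0 at an unadjusted p under 0.05 and 0 over 3 times background.

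Interferon response genes had the highest share of separated members, 5 of 23 (3.41% of all genes separated upward). Of the 23, 21 had a log2 fold change above 0, with a median of 0.49. An unadjusted p under 0.05 was reached by 7, beside 4.01% of all genes upward. The median was 0.27 without SUS replicate 1, 0.28 without RES replicate 2 and 0.26 with a count minimum of 30, which left 20 genes. Only 5 averaged over 3 times background, and the list's median was 1.45 to 1.62 times background in RES and 1.65 to 2.33 in SUS. The separated members were Ifi27, Irf7, Rtp4, Isg15 and Mx1. Isg15, a ubiquitin-like modifier, was at 2.80, 2.79 and 2.60 CPM in RES and 4.33, 3.88 and 3.87 in SUS (0.56, SE 0.34), which is 13 to 20 counts per RES library. The antiviral GTPase gene Mx1 was at 19.6, 16.8 and 16.9 CPM in RES and 20.9, 19.9 and 19.7 in SUS, so the groups nearly touched. Irf7, a transcription factor of the response, was at 6.13, 7.09 and 7.54 CPM in RES and 13.3, 9.98 and 9.55 in SUS (0.66, SE 0.24) at 1.16 times background. Irf1, which also acts outside the interferon response, did not separate the groups, with 28.2, 8.16 and 10.7 CPM in RES and 61.6, 11.8 and 85.6 in SUS (1.75, SE 0.61), and Irf9 had a log2 fold change of 0.88. Microglial genes, whose levels are given above, were high in 2 of the 3 SUS libraries, and their part in the result was not tested.

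The interferon-stimulated response element, searched as GAAA, any 2 bases and GAAA on both strands of the 250 bases before the RefSeq start (GRCm38.p6), was found in 8 of the 17 interferon members that the table of promoters holds and in 2.98% of all 32851 promoters. Its shorter core, AA, any 2 bases and GAAA, which every full match contains, was in 9 of the 17 and in 21.3% of all. The promoter of Isg15 is shown because it packs 3 overlapping matches and the gene separated the groups. The stretch is chr4:156200869-156201068, minus strand, 250 to 51 bases before the start, with the matches in capitals.
Isg15: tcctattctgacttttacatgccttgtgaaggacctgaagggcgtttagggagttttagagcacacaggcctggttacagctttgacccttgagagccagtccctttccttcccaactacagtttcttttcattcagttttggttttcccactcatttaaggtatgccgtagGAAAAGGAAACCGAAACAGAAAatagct
A match describes the letters and does not show binding.

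Genes of protein synthesis had positive log2 fold changes throughout. All 78 tested cytosolic ribosomal protein genes were above 0, with a median of 1.35, and 72 averaged over 3 times background. Of the 78, 60 reached an unadjusted p under 0.05 (beside 4.01% of all genes upward) and 0 separated. Their median level was 9.16, 3.65 and 2.03 times background in RES and 13.7, 4.18 and 19.2 in SUS. RES replicate 1 exceeded SUS replicate 2 by a wide margin, and in 76 of the 78 genes the 3 highest libraries were RES replicate 1 and SUS replicates 1 and 3. Rpl7a, a protein of the large subunit, was at 38.7, 14.8 and 10.7 CPM in RES and 57.2, 23.3 and 129 in SUS (1.71, SE 0.58), while Rps20 and Rps16 had log2 fold changes of 1.60 and 1.69. The list's median was 0.54 without RES replicate 3 and SUS replicate 3. Ribosomal protein genes have many processed pseudogenes, and reads shared with these may have been counted differently between copies.

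Translation factors were likewise above 0 in 26 of 26 genes, with a median of 0.57. An unadjusted p under 0.05 was reached by 8, beside 4.01% of all genes upward. The groups separated in 2 (7.69% of the list, beside 3.41% of all genes). The median was 0.38 without RES replicate 3, and 0.18 without SUS replicate 3 as well. The separated members were Eif4e, the cap-binding protein, at 24.9, 24.9 and 14.2 CPM in RES and 31.0, 28.4 and 33.0 in SUS (0.54, SE 0.25), and Eif3l (0.37, SE 0.24), at 2.13 and 3.02 times background. Those with the smallest p did not separate the groups. Eef1b2, an elongation factor subunit, was at 39.3, 12.9 and 7.67 CPM in RES and 69.0, 13.3 and 128 in SUS (1.81, SE 0.68). The initiation factor genes Eif3h, Eif1 and Eif4g2 had log2 fold changes of 1.17, 1.38 and 1.25.

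Unfolded protein response genes, which raise the folding capacity of the endoplasmic reticulum, were above 0 in 19 of 20 cases, with a median of 0.64. An unadjusted p under 0.05 was reached by 4 (beside 4.01% of all genes upward), and 3 separated (beside 3.41%). Sdf2l1, a chaperone cofactor, separated the groups at 6.49, 5.37 and 6.11 CPM in RES against 8.88, 6.54 and 17.4 in SUS (0.86, SE 0.35). The chaperone gene Hyou1 did so at 46.3, 56.7 and 34.2 against 62.6, 58.0 and 79.2 CPM (0.54, SE 0.30), as did the sensor gene Atf6 (0.34, SE 0.28). The margin between the nearest libraries was small for each. Atf4, the transcription factor shared by several stress pathways, was at 43.5, 23.4 and 12.2 CPM in RES and 71.8, 21.7 and 105 in SUS (1.33, SE 0.54). Hsp90b1, a chaperone of the reticulum, was at 133, 84.2 and 42.0 CPM in RES and 224, 73.5 and 288 in SUS (1.18, SE 0.53), and Herpud1, of its degradation pathway, had a log2 fold change of 1.16. For Atf4 and Hsp90b1 SUS replicate 2 was below RES replicates 1 and 2, and for Herpud1, at 15.6 CPM, it was below RES replicate 1 at 28.4. Without RES replicate 3 and SUS replicate 3 the list's median was 0.20.

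The element bound under this response, searched as CCAAT and CCACG with any 9 bases between them on both strands of the same window, was in 7 of the 17 members in the table of promoters and in 0.113% of all 32851. Calr, the gene of the chaperone calreticulin, and Creld2, a small reticulum chaperone, are shown with the match in capitals, on the opposite strand in both, as examples chosen for the match and outside the rule for named genes. The stretches are chr8:84846982-84847181, minus strand, and chr15:88819396-88819595, plus strand, 250 to 51 bases before the RefSeq starts.
Calr: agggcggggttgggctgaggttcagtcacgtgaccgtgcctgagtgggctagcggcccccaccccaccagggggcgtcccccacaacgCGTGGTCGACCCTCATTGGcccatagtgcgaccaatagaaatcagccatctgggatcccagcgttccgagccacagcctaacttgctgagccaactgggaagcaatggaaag
Creld2: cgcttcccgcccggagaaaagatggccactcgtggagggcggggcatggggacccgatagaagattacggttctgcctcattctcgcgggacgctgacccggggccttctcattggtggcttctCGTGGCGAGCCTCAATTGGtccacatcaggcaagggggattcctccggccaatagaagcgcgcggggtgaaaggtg
Calr was at 174, 97.3 and 39.7 CPM in RES and 227, 92.5 and 349 in SUS, and Creld2 at 12.1, 18.0 and 10.0 in RES and 18.2, 12.4 and 18.7 in SUS, and for both genes the groups overlapped.

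Heat shock proteins, chaperones of the cytosol and mitochondria, were above 0 in 17 of 18 cases with a median of 0.74, but 0 reached an unadjusted p under 0.05 and the median was 0.03 without RES replicate 3 and SUS replicate 3. Dnaja1, a co-chaperone, was at 61.4, 50.0 and 22.4 CPM in RES and 78.6, 43.2 and 137 in SUS (0.95, SE 0.46), and Hspd1, the mitochondrial chaperonin, had a log2 fold change of 0.74. Of 31 proteasome genes 27 were above 0 (median 0.23). Psmb6, a catalytic core subunit, had the smallest p there (0.87, SE 0.35). The subunit gene Psmd2 alone separated the groups, at 46.1, 44.2 and 29.3 CPM in RES against 55.9, 47.9 and 60.2 in SUS. It made up 3.23% of the list, beside 3.41% of all genes that separated upward.

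Nuclear genes of oxidative phosphorylation were above 0 in 59 of 67 cases, with a median of 0.31. Of the 67, 48 averaged over 3 times background. An unadjusted p under 0.05 held for 6, 8.96% of the list. Upward it held for 4.01% of all genes and for 10.2% of protein-coding genes at 3 to 10 times background. The list's median was 0.10 without RES replicate 3, and -0.04 without SUS replicate 3 as well. The 2 separated members are 2.99% of the list, beside 3.41% of all genes. Uqcr11, of complex III, separated the groups at 6.13, 5.80 and 4.81 CPM in RES against 7.26, 7.09 and 12.9 in SUS (0.71, SE 0.29), and Ndufb7, of complex I, at 15.8, 16.3 and 8.84 against 20.1, 22.9 and 17.4 (0.58, SE 0.26). Cox6a1 and Cox4i1, of complex IV, had log2 fold changes of 0.92 and 0.93 and overlapping groups. The 13 proteins encoded in the mitochondrion had a median of 0.44 with 12 above 0 and 0 at an unadjusted p under 0.05. That median was 0.0477 without RES replicate 3 and 1.49 without RES replicate 1. Their summed level was 9733 to 50310 CPM in RES and 22580 to 45740 in SUS. The highest single library was thus in RES. The complex I gene mt-Nd3 was the member below 0 (-1.19, SE 0.72), with 186, 57.8 and 20.8 CPM in RES and 8.66, 75.3 and 32.0 in SUS, and its neighbour mt-Nd4l was at 19.6, 1.503 and 4.81 in RES and 30.2, 9.53 and 22.4 in SUS (1.25, SE 0.63).

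Immediate early genes, transcription factors and regulators that neurons and glia switch on within minutes of a stimulus, had a median log2 fold change of 1.54. Of 27, 24 were above 0, and 13 of these reached an unadjusted p under 0.05, beside 4.01% of all genes upward. Over 3 times background were 23, and 0 separated the groups. The median level was 4.25, 3.39 and 1.70 times background in RES and 5.41, 2.96 and 13.3 in SUS, so SUS replicate 3 stood apart. Fos was at 70.8, 26.0 and 17.6 CPM in RES and 122, 27.7 and 229 in SUS (1.73, SE 0.68). RES replicate 1 exceeded SUS replicate 2. Jund, an AP-1 subunit with the smallest p of the list, was at 7.71, 4.51 and 2.60 CPM in RES and 16.4, 5.32 and 40.3 in SUS (2.08, SE 0.63). Ier3, Egr2 and Klf4 had log2 fold changes of 1.90, 1.36 and 1.54.

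The 3 members below 0 include the neuronal genes Npas4 and Arc, named here after their values were seen. Npas4, a factor that depends on neuronal calcium entry, was at 31.0, 87.6 and 26.7 CPM in RES and 18.4, 50.8 and 18.4 in SUS (-0.72, SE 0.49). Arc, a synaptic scaffold gene, was at 30.3, 71.5 and 13.1 CPM in RES and 29.5, 50.2 and 25.4 in SUS (-0.12, SE 0.48). Their highest libraries were RES replicate 2 and SUS replicate 2, which are also the highest for medium spiny neuron genes, while Fos and Jund were highest in SUS replicate 3, with microglial genes. The part of these cell types in the result was not tested. Without RES replicate 3 and SUS replicate 3 the list's median was 0.30.

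**Figure D4:**
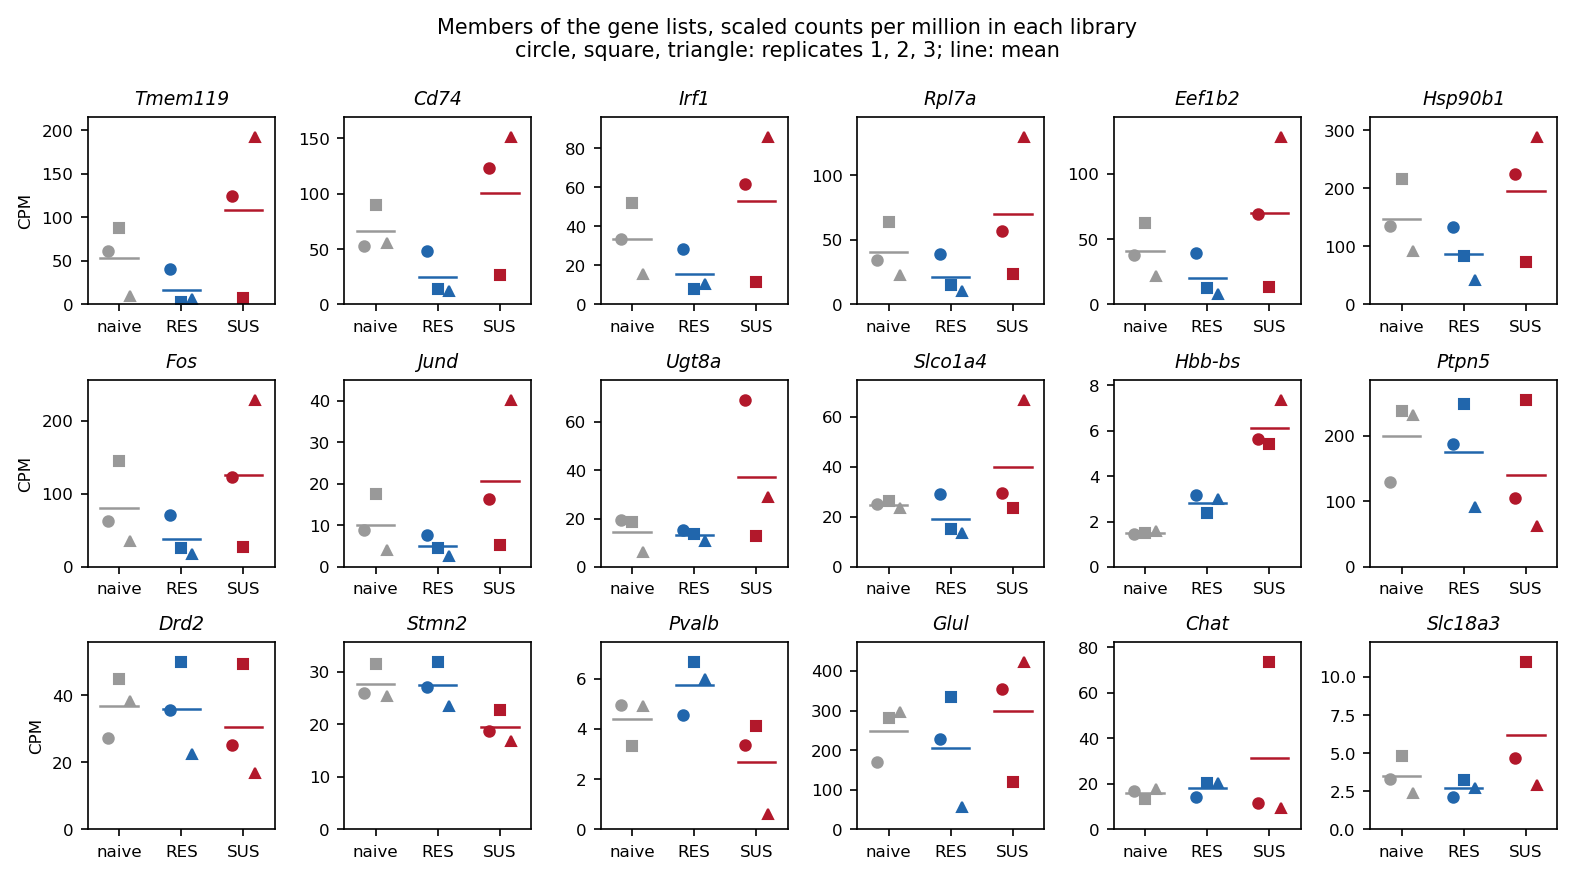
CPM of 18 members of the gene lists by group (grey drug-naive, blue RES, red SUS), with circle, square and triangle for replicates 1 to 3 and a line at the mean. Microglial, ribosomal, stress and immediate early genes are high in SUS replicates 1 and 3 and low in SUS replicate 2, Ptpn5 and Drd2 show the reverse within SUS, Hbb-bs separates the groups and Chat is high in SUS replicate 2 only.

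Oligodendrocyte genes, which make and maintain myelin, were above 0 in 15 of 16 cases, with a median of 1.00. An unadjusted p under 0.05 was found for 7, beside 4.01% of all genes upward, and 0 separated. The list was at 4.45, 4.35 and 2.16 times background in RES and 12.8, 3.44 and 4.74 in SUS, and its sum ran from 377 to 1031 CPM in RES and from 690 to 2885 in SUS. SUS replicate 1 alone stood clear of RES, and without it the median was 0.32. Ugt8a, of galactolipid synthesis, was at 15.1, 13.5 and 10.5 CPM in RES and 69.1, 12.8 and 29.0 in SUS (1.51, SE 0.50). The myelin genes Mag and Mog had log2 fold changes of 1.24 and 0.98. Their precursors had a smaller median, 0.28 over 12 genes with 10 above 0 and 0 at an unadjusted p under 0.05, and Matn4 had the smallest p (0.38, SE 0.22).

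Endothelial genes, of the vessel wall, were above 0 in 13 of 16 cases (median 0.46). An unadjusted p under 0.05 was reached by 1 (6.25% of the list, beside 4.01% of all genes upward). Slco1a4, a transporter of the blood-brain barrier, was at 29.1, 15.0 and 13.5 CPM in RES and 29.4, 23.5 and 66.7 in SUS (1.05, SE 0.38). Pecam1, a junction protein, separated the groups at 31.9, 23.4 and 35.4 against 38.2, 36.7 and 52.0 CPM (0.48, SE 0.26). It was 6.25% of the list, beside 3.41% of all genes that separated upward. Without SUS replicate 3 the list's median was 0.11. Mural and fibroblast genes had a median of 0.10 over 13, with 9 above 0. Vtn, a pericyte gene, had the smallest p (0.67, SE 0.30). The collagen gene Col1a2 separated the groups downward, as 4.22% of all genes did. It was at 43.5, 48.5 and 45.0 CPM in RES against 41.6, 32.3 and 30.6 in SUS (-0.39, SE 0.25). Ependymal and choroid plexus genes (11, 5 above 0) had a median of -0.00, and neural progenitor genes (12, 7 above 0) 0.11. Sox4, a transcription factor also made outside progenitors, was at an unadjusted p under 0.05 (1.35, SE 0.43). It was 8.33% of the progenitor list, beside 4.01% of all genes upward.

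Hbb-bs, the beta-globin gene of red blood cells, separated the groups, as 3.41% of all genes did upward. It was at 3.15, 2.36 and 2.99 CPM in RES and 5.63, 5.43 and 7.38 in SUS, on 11 to 23 and 49 to 61 counts per library, a log2 fold change of 1.10 (SE 0.31, adjusted p = 0.87 by edgeR). It was at 1.70 to 1.86 times background in RES and 3.56 to 4.26 in SUS. The alpha-globin gene Hba-a1 did not separate them, with 1.93, 0.644 and 1.30 CPM in RES and 5.09, 1.11 and 1.33 in SUS. The 5 red blood cell genes tested had a median of 0.15, with 3 above 0, and the mice were perfused before dissection, per the labels.

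Neuronal lists had medians slightly below 0. Medium spiny neuron genes were below 0 in 18 of 23 cases (median -0.14, 0 at an unadjusted p under 0.05). Their level was 5.53, 9.09 and 2.79 times background in RES and 4.22, 9.51 and 2.80 in SUS, and 21 of the 23 were highest in RES replicates 1 and 2 and SUS replicate 2. Ptpn5, a striatal phosphatase, was at 187, 249 and 91.3 CPM in RES and 104, 255 and 61.9 in SUS (-0.32, SE 0.52). Drd2, the dopamine D2 receptor, was at 35.6, 49.8 and 22.4 CPM in RES and 25.0, 49.3 and 16.9 in SUS (-0.23, SE 0.38). Each group held libraries at both ends. The list's median was -0.75 without SUS replicate 2 and 0.16 without SUS replicate 3.

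Synaptic lists went with these. Glutamate receptor and scaffold genes were below 0 in 36 of 40 cases (median -0.17), γ-aminobutyric acid (GABA) signalling genes in 17 of 21 (-0.14), presynaptic release genes in 20 of 30 (-0.10), ion channel genes in 34 of 44 (-0.13) and dopamine and cAMP signalling genes in 24 of 35 (-0.10). All 5 medians turned positive without RES replicate 2 and without SUS replicate 3, and 0 genes of the 5 lists were at an unadjusted p under 0.05 downward. Grin2d, a subunit of the NMDA receptor, separated the groups at 23.0, 20.4 and 17.6 CPM in RES against 15.9, 16.2 and 12.6 in SUS (-0.44, SE 0.22), at 1.30 times background. Crem, a regulator of cAMP-driven transcription, did so at 23.5, 19.97 and 21.3 against 19.2, 13.9 and 14.4 CPM (-0.45, SE 0.22), at 1.55 times background. Both are at the level of silent genes, and 4.22% of all genes separated downward.

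Members of these lists with the smallest p were often above 0. Rgs2, which limits G-protein signalling, was at 41.4, 22.1 and 11.7 CPM in RES and 72.1, 22.6 and 105 in SUS (1.41, SE 0.54). Gnai2, an inhibitory G-protein subunit, had a log2 fold change of 1.24 (SE 0.55). Rab3a, of synaptic vesicles, had 0.62 (SE 0.34). Among GABA genes the smallest p was that of the receptor subunit gene Gabra5 (-0.29, SE 0.29).

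Pan-neuronal genes were below 0 in 14 of 17 cases (median -0.17). Stmn2, a growth-cone protein, separated the groups at 27.0, 31.8 and 23.5 CPM in RES against 18.7, 22.6 and 16.8 in SUS (-0.50, SE 0.23), at 2.07 times background. Cortical glutamatergic genes were below 0 in 9 of 11 cases (median -0.15), with 0 over 3 times background and Slc17a6, a vesicular glutamate transporter, having the smallest p (-0.47, SE 0.25). Markers of other striatal interneurons had a median of -0.03 with 7 of 12 below 0. Pvalb, of fast-spiking interneurons, separated the groups at 4.56, 6.66 and 5.98 CPM in RES against 3.36, 4.10 and 0.605 in SUS (-1.07, SE 0.46). Somatostatin, Sst, did so at 6.84, 6.44 and 6.63 against 4.22, 4.66 and 6.29 CPM (-0.40, SE 0.26). They averaged 2.02 and 3.94 times background, and 4.22% of all genes separated downward.

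Astrocyte genes had the lowest median, -0.27, with 14 of 18 below 0 and 0 at an unadjusted p under 0.05. Their level was 5.65, 18.6 and 3.72 times background in RES and 9.14, 5.52 and 5.06 in SUS, so RES replicate 2 stood apart, and without it the median was 0.43. Summed, the list was at 1118 to 5384 CPM in RES and 2082 to 3179 in SUS. Sox9, a glial transcription factor, was at 50.8, 90.4 and 25.1 CPM in RES and 55.9, 30.0 and 33.6 in SUS (-0.47, SE 0.48), and Glul, glutamine synthetase, at 229, 333 and 56.4 in RES and 354, 120 and 422 in SUS (0.54, SE 0.59).

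Of the cholinergic identity genes 10 of 17 were below 0 (median -0.09). Chat (chromosome 14, 32408203 to 32465989) was at 14.4, 20.2 and 20.3 CPM in RES and 11.6, 73.5 and 9.31 in SUS. SUS replicate 2, at 7.87 times background, was the highest library, and SUS replicates 1 and 3 were the lowest of the 6. The log2 fold change was 0.78 (SE 0.56, adjusted p = 0.92 by edgeR) and turned to -0.81 without SUS replicate 2. Slc18a3, the vesicular acetylcholine transporter whose gene lies inside Chat on the same strand, was at 2.10, 3.22 and 2.73 CPM in RES and 4.66, 10.97 and 2.90 in SUS (1.21, SE 0.46), at 0.913 times background on average. Its groups overlapped between RES replicate 2 and SUS replicate 3, and reads over the shared span cannot be split between the 2 genes by their position alone. Slc5a7, the choline transporter, had a log2 fold change of -0.25 (SE 0.22) at 1.10 times background. The dopamine receptor gene Drd5 and the muscarinic autoreceptor gene Chrm2 had -0.41 (SE 0.57) and -0.07 (SE 0.24), at 0.291 and 0.995 times background.

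Acetylcholine receptor genes had a median of -0.07, with 9 of 14 below 0 and 1 over 3 times background. Chrnb3, a nicotinic subunit, and Chrm3, a muscarinic receptor, separated the groups downward with log2 fold changes of -0.29 (SE 0.21) and -0.23 (SE 0.22), at 1.19 and 1.52 times background, beside 4.22% of all genes that did so. The list around p11, an adaptor protein known to shape depression-like and reward behaviour through cholinergic interneurons, had a median of 0.08 with 4 of 7 above 0 and 0 over 3 times background. Hltf, a chromatin remodeller of that list, was at 29.3, 24.5 and 16.0 CPM in RES and 55.9, 29.3 and 56.7 in SUS (1.03, SE 0.32). The scaffold gene Ahnak separated the groups at 74.8, 69.2 and 57.0 CPM in RES against 103, 75.3 and 109 in SUS (0.52, SE 0.30). Over all genes 3.41% separated upward.

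Signalling, chromatin and lipid lists had medians near 0. MAPK and trophic signalling genes were above 0 in 18 of 30 cases (median 0.12), chromatin regulators in 25 of 34 (0.12) and cholesterol synthesis genes in 16 of 21 (0.16). Dusp6, a phosphatase that ends ERK signalling, was at 29.4, 19.6 and 10.0 CPM in RES and 65.0, 14.1 and 109 in SUS (1.68, SE 0.58), and the kinases Mapk3 and Akt1 had 0.93 and 0.80. The neurotrophin receptor gene Ngfr separated the groups downward (-0.64, SE 0.31), as 4.22% of all genes did, at 1.24 times background. Hdac1, a histone deacetylase, was at 39.6, 36.1 and 18.6 CPM in RES and 78.5, 28.4 and 83.3 in SUS (1.02, SE 0.41). Mvd, of the mevalonate pathway, was the single cholesterol gene at an unadjusted p under 0.05 (0.60, SE 0.27). It was 4.76% of the list, beside 4.01% of all genes upward. SUS replicate 2 overlapped RES for Dusp6 and Hdac1.

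**Figure D5:**
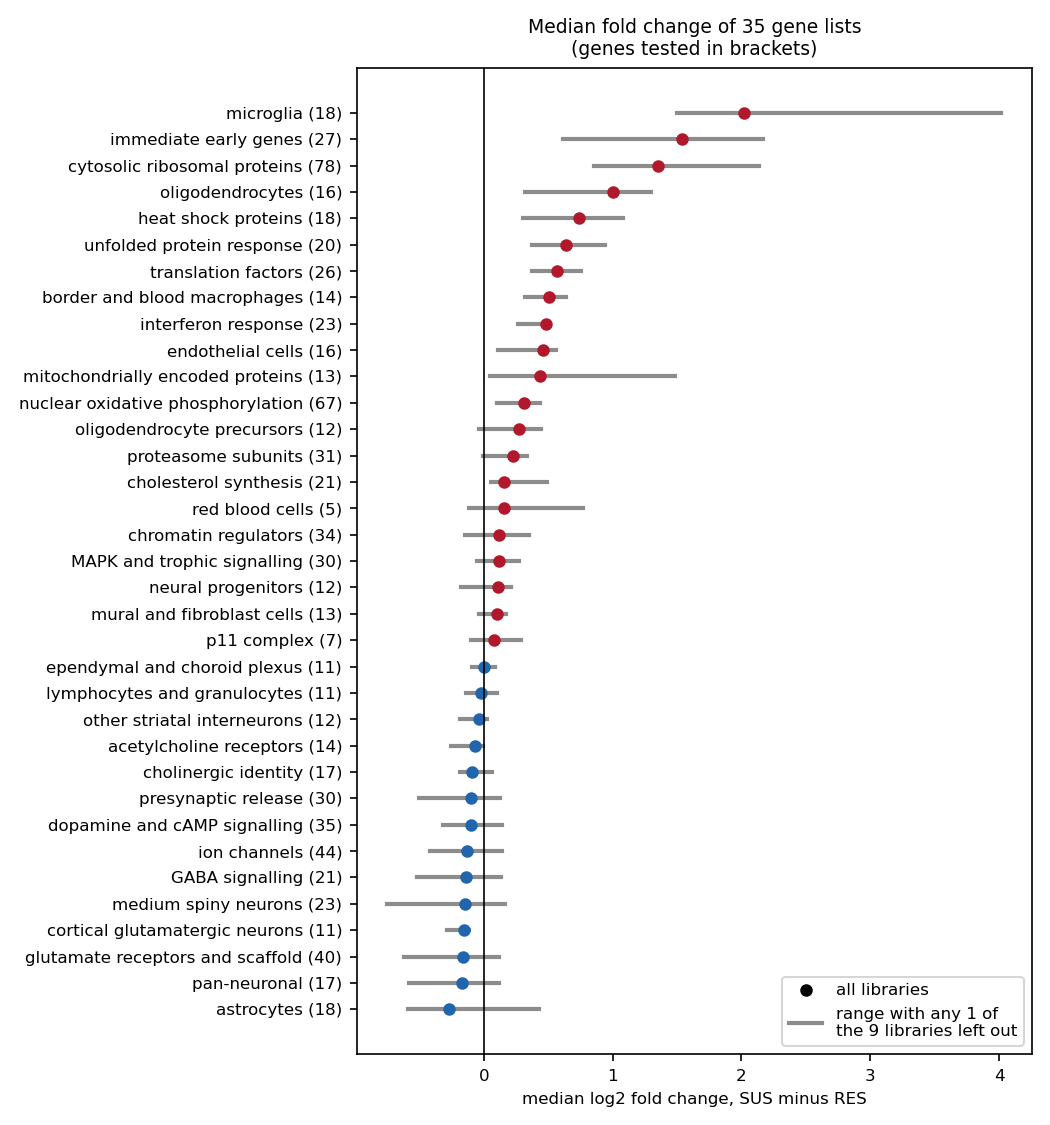
Median log2 fold change of SUS minus RES for each of the 35 gene lists (points, red above 0 and blue below), with bars for the range when any 1 of the 9 libraries is left out and the number of genes tested in brackets. The lists of microglia, immediate early genes, ribosomal proteins and oligodendrocytes stay above 0 throughout, while the bars of most neuronal lists cross 0.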

How the data were processed

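RNA of cells sorted from the nucleus accumbens after papain dissociation was sequenced in 9 libraries, 3 per title group. The deposited table holds raw counts per Ensembl gene. The submitters' processing notes list the build GRCm38 and, with no order or settings, the tools DESeq, DESeq2, STAR 2.5.2b, FastQC and HTSeq. The annotation release and strand setting are not given in the sources used here. Of 52636 gene IDs, 52489 matched GENCODE M21, which gave exon lengths and coordinates, and 147 matched neither it nor a table of gene names.

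Counts were tested with edgeR 4.0.16 (R 4.3.3), with TMM scaling, filterByExpr at a count minimum of 10 and a quasi-likelihood fit over all 9 libraries, with Benjamini-Hochberg adjustment over all tested genes at 0.05. The procedure was tested on simulated data. Only the spread between libraries, which may share pools, enters the p-values. Depth was 4574518 to 11155730 counts per library. The 35 gene lists (811 entries) were written by hand, and members and lists were chosen with earlier results of these data known. Named genes were 12 each way by smallest unadjusted p. They came from genes of at least 10 CPM in a group with no overlap between SUS and RES, leaving out predicted genes, pseudogenes and olfactory and vomeronasal receptors. Also named were the 4 or fewer members of smallest p in each list, and Fos, Chrm2, Drd5, Drd2, Slc5a7, Slc18a3 and Chat. Separated list members outside that rule, Npas4, Arc, Calr and Creld2 were chosen after their values were seen. The 18 alternative fits changed scaling, filter, libraries, tool (DESeq2 1.42.0, limma 3.58.1) or added a replicate block, and silent genes replaced olfactory receptors as background. Promoter sequences are from RefSeq.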

Additional observations from a re-analysis of the deposited data

How the results depend on the processing

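In all 18 alternative fits 0 genes passed the adjusted threshold. The number at an unadjusted p under 0.05 ranged from 1127 to 4712 with 1 library left out (520 to 3087 higher in SUS, 333 to 1625 lower). It was 3367 with limma-voom (1669 lower) and 764 without RES replicate 3 and SUS replicate 3 together (435 higher, 329 lower). With a count minimum of 30 there were 415 lower genes, and with the 6 libraries alone 413. The cause was not tested, nor was the part that depth and background play for genes below 3 times background.

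The replicate block gave 1995 genes at an unadjusted p under 0.05 (1380 higher, 615 lower) and 0 called. Same-numbered libraries correlated in their deviations at 0.133, 0.172 and 0.0114, and RES replicates 1 and 3 correlated best with another number, so the numbers were not taken to pair the samples. The block turned the sign for ependymal genes (0.0008) and Arc (0.0537).

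Leaving out RES replicate 3 and SUS replicate 3 together turned the sign of the median for nuclear oxidative phosphorylation (-0.042), proteasome (-0.0017), cholesterol synthesis (-0.0064), chromatin (-0.0169), cholinergic identity (0.0294), cortical glutamatergic (0.05) and lymphocyte (0.0602) genes, and of Rab3a (-0.0393) and Glul (-0.23). Limma-voom did so for p11 (-0.0272), cortical glutamatergic (0.0073), astrocyte (0.10) and neural progenitor (-0.0217) genes, for Chat (-0.064) and for Drd5 (0.0721). A count minimum of 30 did so for ependymal (0.0024) and red blood cell (-0.23) genes.

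With 1 library left out the median ran from -0.0069 to 0.33 for proteasome, -0.14 to 0.35 for chromatin, -0.62 to 0.11 for glutamate, -0.52 to 0.13 for GABA, -0.50 to 0.12 for presynaptic, -0.41 to 0.14 for ion channel, -0.32 to 0.14 for dopamine, -0.0547 to 0.28 for MAPK and -0.10 to 0.29 for p11 genes. It ran from -0.18 to 0.0598 for cholinergic identity, -0.75 to 0.16 for medium spiny neurons, -0.19 to 0.0229 for other interneurons, -0.58 to 0.11 for pan-neuronal, -0.59 to 0.43 for astrocyte and -0.14 to 0.11 for lymphocyte genes. It ran from -0.0407 to 0.45 for oligodendrocyte precursors, -0.0404 to 0.17 for mural cells, -0.0906 to 0.0879 for ependymal cells, -0.18 to 0.21 for neural progenitors and -0.12 to 0.77 for red blood cells. Other medians kept their sign, from 1.5 to 4.02 for microglia, 0.61 to 2.17 for immediate early genes, 0.86 to 2.14 for ribosomal proteins, 0.31 to 1.08 for heat shock and 0.0477 to 1.49 for mitochondrially encoded proteins among them. With silent genes in place of olfactory receptors as background, 23 of 35 list levels moved by more than the spread between libraries, the cholinergic list from 1.46 to 0.753 and microglia, within that spread, from 15.7 to 9.29. Of 118 genes named, 10 changed sign in some fit. With 1 library left out Chat ran from -0.81 to 1.22, Drd2 from -0.77 to 0.0559, Chrm2 from -0.27 to 0.0327, Arc from -0.54 to 0.68, Ptpn5 from -1.08 to 0.0322, Sox9 from -0.83 to 0.0608 and Hba-a1 from -0.12 to 1.29.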

Other observations

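Of the 60 genes with the smallest p, 51 separated the groups, which ranking by p favours. Over all genes 3.41% separated upward and 4.22% downward. Of the 60, 31 reached 10 CPM in a group and 17 were pseudogenes. Among those that did not separate, 6 are named here after their values were seen. Nrm, a protein of the nuclear envelope, was at 9.46, 3.87 and 5.46 CPM in RES replicates 1 to 3 and 27.4, 8.98 and 43.6 in SUS (log2 fold change 2.08, SE 0.50). Tnfaip8l2, a regulator of immune signalling, was at 4.56, 2.15 and 3.38 CPM in RES and 12.7, 4.21 and 17.1 in SUS (1.73, SE 0.45). Psmb8, a subunit of the immunoproteasome, was at 4.21, 3.65 and 2.34 CPM in RES and 11.3, 3.77 and 19.8 in SUS (1.79, SE 0.49). H2-Q4, a class I histocompatibility gene, had a log2 fold change of 1.69 (SE 0.47), Dnajb13 one of 1.92 (SE 0.52) and Plekhg2 one of 1.87 (SE 0.53). In all 6 genes SUS replicates 1 and 3 were the highest libraries and SUS replicate 2 lay below RES replicate 1, the order that microglial genes took, whose part in these values was not tested.

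Short non-coding RNAs leaned the other way from protein-coding genes, and so did processed and unprocessed pseudogenes and lincRNA genes. Of 377 small nucleolar RNA genes, 9.81% had every SUS library below every RES library and 2.12% every SUS library above, with a median log2 fold change of -0.16. The medians were -0.21 over 225 small nuclear RNA genes, -0.16 over 292 microRNA genes and 0.05 over 20629 protein-coding genes. These small RNAs are short, and their level over background was not summarised by class. Every SUS library lay below every RES library in 5.76% of 5365 processed pseudogenes, 7.97% of 1154 unprocessed pseudogenes and 5.75% of 4056 lincRNA genes. The shares above were 2.98%, 3.29% and 2.24%.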
